A study of Mus musculus with 8 samples.

Results

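Chemokines are small secreted proteins that bind receptors on leukocytes and guide them into tissue. The 10 genes described here are the CXC ligands Cxcl1, Cxcl9, Cxcl10, Cxcl12 and Cxcl13, the CC ligands Ccl2, Ccl5, Ccl6 and Ccl9, and the receptor Ccr2. They were chosen by name, with earlier results of these data known, and found in the table by gene symbol. Each has 1 row among the 17810 genes of the table, and 9 of the 10 had enough counts to be among the 12395 genes tested. In a fatty liver, the axis of Ccl2 and Ccr2 is known for bringing monocytes from blood into the tissue. Interferon-induced Cxcl9 and Cxcl10 draw T cells and natural killer cells through the receptor Cxcr3. Cxcl1 attracts neutrophils, Cxcl12 is a homeostatic ligand of stromal and endothelial cells, and Cxcl13 attracts B cells.

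RNA-Seq was performed on whole livers of male WT and miR-33 AlbCRE mice (HKO), 4 of each, with 1 library per liver. All mice received a CD-HFD, a choline-deficient high-fat diet that brings on fatty liver disease, for 3 months from 8 weeks of age, and were 5 months old at collection. HKO mice carry loxP-flanked miR-33 alleles that Cre recombinase under the albumin promoter removes in hepatocytes. The WT mice were littermates, and whether they carry the loxP-flanked alleles is not given in the sources used here. Livers were perfused before freezing, which removes blood. The names of the libraries end in a sample number, which is lower for every HKO library than for every WT library. What this number stands for is not given in the sources used here. Genotype and anything that follows this number cannot be told apart.

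The value of a gene is the number of reads that the authors' quantification assigned to it. It is given here as CPM, the reads of a gene after TMM scaling of all libraries to a common total. Library totals lay between 12174339 and 18319736 for WT livers and between 12509201 and 18735785 for HKO livers, and 3 counts correspond to 0.149 to 0.255 CPM. That floor covers counting error only. Whole liver mixes many cell types, so fewer cells of a type and less RNA per cell cannot be told apart. The spread between the 4 livers of a genotype holds both animal and technical variation. Across all genes tested, 638 passed edgeR's quasi-likelihood test at an adjusted p of 0.05 (Benjamini-Hochberg), which is 5.15% (426 or 3.44% lower and 212 or 1.71% higher in HKO livers).

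One library stood apart. HKO replicate 2 had 40.8 CPM of Cxcl5, a neutrophil chemokine of epithelial cells, whereas the other livers had 0.131 CPM or less. Its levels of the bile duct markers Krt19 and Epcam were 16.9 and 16.5 CPM, and its 10 Kupffer cell markers summed to 82.0 CPM against 229 to 252 CPM in the other HKO livers. Results are therefore given with and without this liver where it matters.

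Deletion of a microRNA can act on messages that carry its target site, and the sequence of mature miR-33-5p is shown for the site that was searched. It lies on the plus strand at chr15:82198127-82198147 of GRCm38.p6 (RefSeq), and capitals mark the seed, bases 2 to 8.
miR-33-5p: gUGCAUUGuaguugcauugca
Matches to this seed (CAATGCA, or AATGCAA for bases 2 to 7 followed by A) were counted in the longest 3′UTR annotated for each gene. Matches that overlap were each counted, so the number of separate sites can be smaller. Cxcl12 has 3 matches in 5188 bases, Cxcl9 has 1 in 2452 and Ccl2 has 1 in 275. The other 7 genes, Cxcl10 and Ccr2 among them, have 0 matches. Of 11536 tested genes with a 3′UTR of at least 50 bases, 16.2% have a match. A match is a run of letters and not a shown site of repression.

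Cxcl9 and Cxcl10 are neighbours on chromosome 5 and bind the same receptor, and of these 2 genes only Cxcl10 passed the test below. The 250 bases before their transcription starts are shown beside each other (RefSeq, GRCm38.p6, minus strand), at chr5:92348890-92349139 for Cxcl10 and chr5:92328080-92328329 for Cxcl9. Capitals mark matches on either strand to an interferon-stimulated response element (ISRE, TTTCNNTTTC), the kappaB motif and AP-1 (TGANTCA).
Cxcl10: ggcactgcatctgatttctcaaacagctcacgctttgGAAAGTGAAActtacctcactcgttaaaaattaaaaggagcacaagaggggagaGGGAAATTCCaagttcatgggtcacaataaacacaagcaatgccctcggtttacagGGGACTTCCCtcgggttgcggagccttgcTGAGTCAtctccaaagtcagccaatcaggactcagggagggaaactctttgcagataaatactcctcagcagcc
Cxcl9: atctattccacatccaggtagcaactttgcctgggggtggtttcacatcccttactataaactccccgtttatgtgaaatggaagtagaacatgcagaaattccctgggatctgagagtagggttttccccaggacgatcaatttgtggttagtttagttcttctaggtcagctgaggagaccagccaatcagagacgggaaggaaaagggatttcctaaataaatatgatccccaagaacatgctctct
In order from the 5′ end, the capitals in Cxcl10 are 1 ISRE match that begins 213 bases upstream, kappaB matches that begin 159 and 103 bases upstream, and 1 AP-1 match that begins 74 bases upstream. None of these matches overlaps another. The Cxcl9 window holds 0 matches to these motifs, and the STAT site GAS (TTCNNNGAA) has 0 matches in both windows. Among 32851 promoters, 3.9% hold a kappaB match, 2.98% an ISRE, 7.02% a GAS and 6.75% an AP-1 match. Of the other genes with a promoter in the RefSeq table, Cxcl1 has 2 kappaB matches, Ccl9 has 1 kappaB and 1 AP-1 match, and Cxcl12, Cxcl13, Ccl6 and Ccr2 have 0. The absence of a match says only that those letters are not in the window.

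The question put to the livers was whether loss of miR-33 in hepatocytes went with other levels of these inflammatory genes. Of the 9 genes tested, Cxcl10 and Ccr2 were lower in HKO livers, against 3.44% of all genes tested, and 0 were higher, against 1.71%. DESeq2 and limma-voom called the same 2 genes and 0 as higher. Both were known to be lower in these livers when the 10 genes were chosen, so their direction is not independent evidence. Ccl2 had the lowest fold change of the 9 but did not pass. An unadjusted p under 0.05 was reached by these 3 of the 9, compared with 19.6% of all genes. The median log2 fold change of the 9 was -0.04, against 0.01 over all genes tested, and 5 of 9 were below 0, against 48.4% of all genes.

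**Figure D1:**
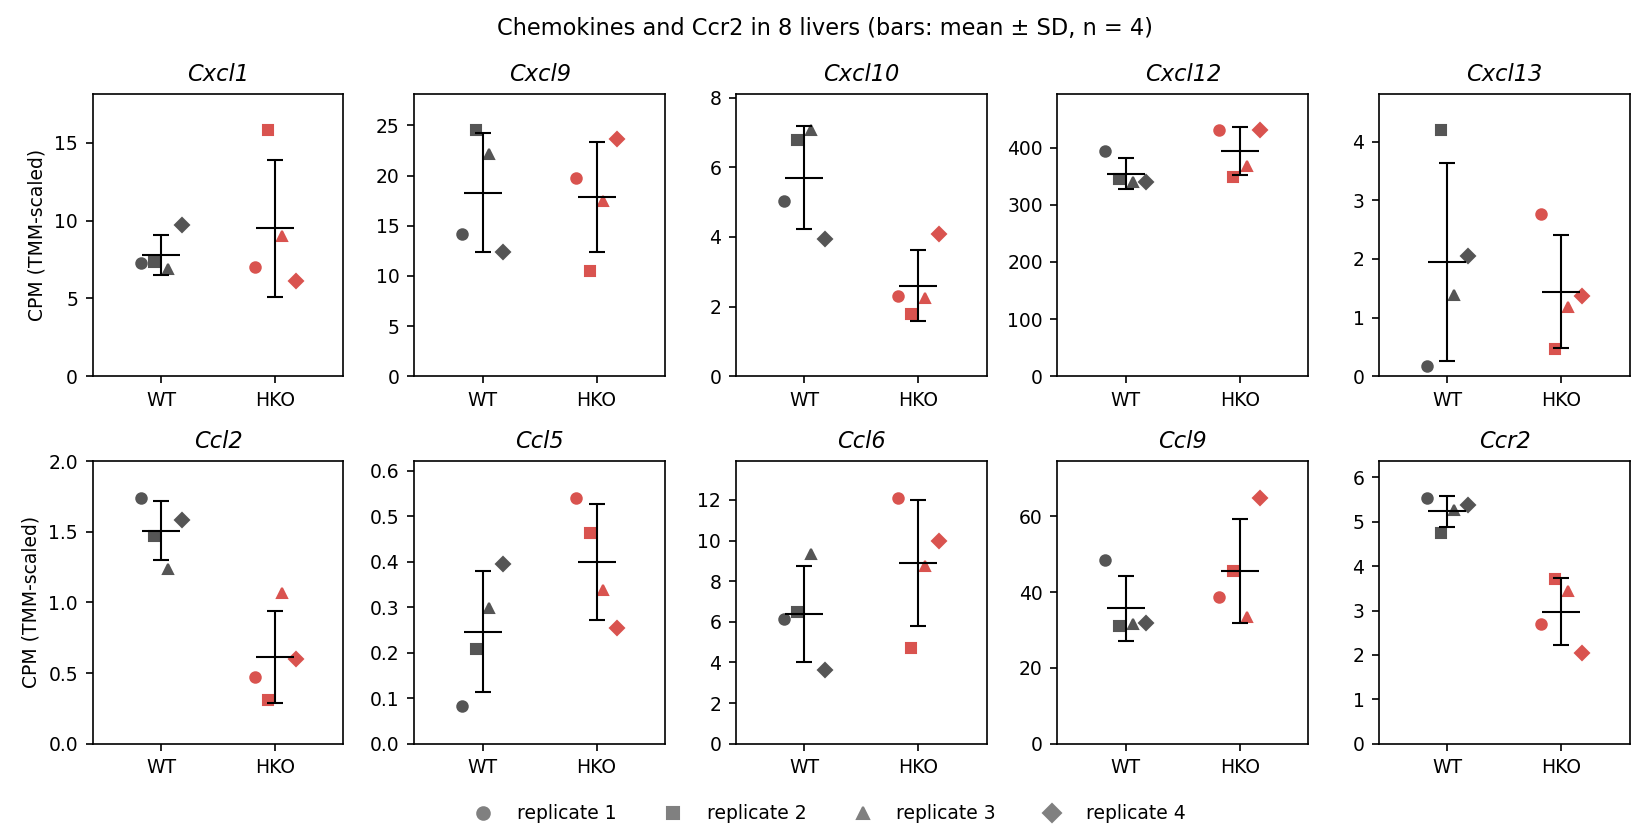
Level of each gene in every liver, as CPM (TMM-scaled, each panel with its own linear axis from 0), for WT (grey) and HKO (red); symbols give the replicate number, bars the mean ± SD of 4 livers. Ccr2 and Ccl2 separate the genotypes, Cxcl10 does so except for HKO replicate 4 and WT replicate 4, and the other genes overlap.

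Ccr2, the receptor that classical monocytes use to leave the blood, lies on chromosome 9 from 124102183 to 124109141 (plus strand, GRCm38). In WT livers it measured 5.54, 4.75, 5.27 and 5.39 CPM in replicates 1 to 4, and in HKO livers 2.70, 3.71, 3.44 and 2.04 CPM. Every HKO liver was below every WT liver, and the WT livers lay close together. The means were 5.24 ± 0.344 CPM for WT against 2.97 ± 0.751 CPM for HKO livers (SD, n = 4 each), from 67 to 106 and 24 to 61 counts. By the fitted fold change the level fell by 42.9%. On the log2 scale the difference was -0.81 (SE 0.20, 95% interval -1.25 to -0.36), with an adjusted p of 0.0416 by edgeR with Benjamini-Hochberg adjustment. Across all genes tested, 7.19% were lower in HKO livers without overlap and 12.5% did not overlap in either direction.

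Ccl2, the main ligand of Ccr2, lies on chromosome 11 from 82035577 to 82037453 (plus strand). It measured 1.74, 1.47, 1.24 and 1.58 CPM in WT livers and 0.472, 0.309, 1.07 and 0.596 CPM in HKO livers. The groups did not overlap, and HKO replicate 3 came closest to the WT livers. These levels rest on few counts, 21 to 25 per WT liver and 4 to 19 per HKO liver, and the gene entered the test through its WT livers. WT livers averaged 1.51 ± 0.207 CPM and HKO livers 0.612 ± 0.328 CPM (SD, n = 4 each), a log2 fold change of -1.24 with an SE of 0.38 and a 95% interval from -2.07 to -0.41. The adjusted p of 0.0908 (edgeR, Benjamini-Hochberg) missed the threshold. It was 0.0387 without HKO replicate 3, with a log2 fold change of -1.69, and 0.107 to 0.208 without any other single liver. The other ligands of Ccr2 were scarcely present, with Ccl7 at 0 to 6 counts per liver and Ccl12 at 0 to 1.

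Cxcl10, an interferon-induced ligand of Cxcr3, lies on chromosome 5 from 92346639 to 92348890 (minus strand), and its promoter is printed above. It measured 5.04, 6.77, 7.06 and 3.94 CPM in WT livers, from 60 to 142 counts. In HKO livers it measured 2.29, 1.78, 2.25 and 4.09 CPM, from 23 to 48 counts. HKO replicates 1 to 3 were below every WT liver, and HKO replicate 4 was just above WT replicate 4. The means were 5.70 ± 1.47 and 2.60 ± 1.02 CPM (SD, n = 4 each). By the fitted fold change the level fell by 55%. Its log2 fold change was -1.15 (SE 0.28, 95% interval -1.75 to -0.55), with an adjusted p of 0.0345 by edgeR with Benjamini-Hochberg adjustment.

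Both calls were close to the threshold and depended on single livers. With 1 liver left out, Cxcl10 was called without WT replicate 4 (adjusted p = 0.0251 by edgeR) and without HKO replicate 4 (0.0168). It was not called without WT replicates 1, 2 or 3 (0.0642, a value above 0.1, and 0.0842) or without HKO replicates 1, 2 or 3 (0.0737, 0.074 and 0.0837). Ccr2 was called only without HKO replicate 2, with an adjusted p of 0.0391 by edgeR. Its adjusted p from edgeR was 0.109, 0.0932, 0.0769 and 0.079 without WT replicates 1 to 4, and 0.0863, 0.0552 and 0.0921 without HKO replicates 1, 3 and 4. The fold changes themselves kept their direction in all 8 fits, from -1.43 to -1.01 for Cxcl10 and from -0.92 to -0.67 for Ccr2. With all livers, DESeq2 gave 0.00524 and 0.0143 (7.67% of the genes it tested were called), and limma-voom 0.0388 and 0.0385 (4.86% called).

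**Figure D2:**
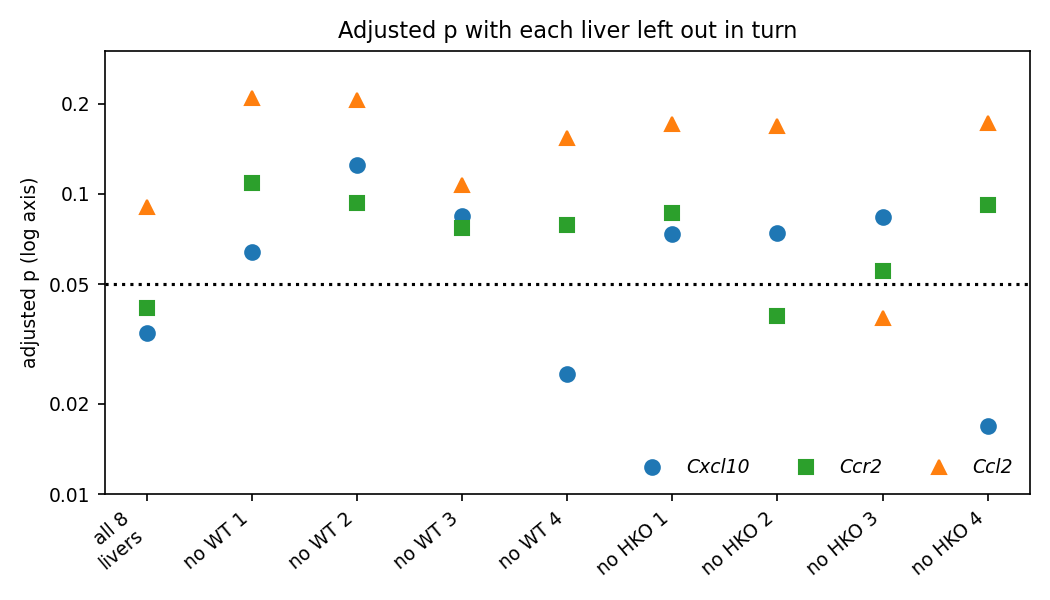
Adjusted p (log axis) from edgeR's quasi-likelihood test for Cxcl10, Ccr2 and Ccl2 with all 8 livers and with each liver left out; the dotted line marks 0.05. Cxcl10 stays under the line in 2 of 8 such fits, and Ccr2 and Ccl2 are under it in 1 each.

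Cxcl9, the other interferon-induced ligand of Cxcr3 on the list, lies on chromosome 5 from 92321331 to 92328080 (minus strand). Its level was 14.2, 24.5, 22.1 and 12.4 CPM in WT livers and 19.8, 10.5, 17.5 and 23.6 CPM in HKO livers. The groups overlapped fully, at 18.3 ± 5.89 and 17.8 ± 5.51 CPM (SD, n = 4 each). The log2 fold change was -0.04 (95% interval -0.71 to 0.63; adjusted p = 0.962 by edgeR), and it was 0.14 without HKO replicate 2. Cxcl11, the remaining Cxcr3 ligand, had 2.77 ± 0.248 CPM in WT livers against 2.46 ± 0.322 CPM in HKO livers, with a log2 fold change of -0.17 and an adjusted p of 0.733 by edgeR. The receptor Cxcr3 itself was at 0 to 4 counts in every liver and was not tested.

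Set against Cxcl9 within each liver, Cxcl10 separated the genotypes. The ratio of Cxcl10 to Cxcl9 counts was 0.355, 0.276, 0.32 and 0.317 in WT livers and 0.116, 0.169, 0.129 and 0.173 in HKO livers. The groups did not overlap, with means of 0.317 ± 0.032 and 0.147 ± 0.0288 (SD, n = 4 each), and relative to the mean it varied less within a genotype than either gene alone. This ratio was chosen after the values had been seen, and it carries no test. Among 12394 genes set against Cxcl9 in the same way, 0.984% had lower ratios in HKO livers without overlap. That share does not measure how rare the Cxcl10 result is. Cxcl10 had already been called as lower, and within the genotypes it followed Cxcl9 (correlation 0.89). The ratio of a gene that does not follow Cxcl9 carries the spread of Cxcl9 and so separates less readily. How many of the genes follow Cxcl9 was not tested. The ratio of Cxcl11 to Cxcl9 overlapped, at 0.165 ± 0.0587 in WT and 0.15 ± 0.056 in HKO livers.

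**Figure D3:**
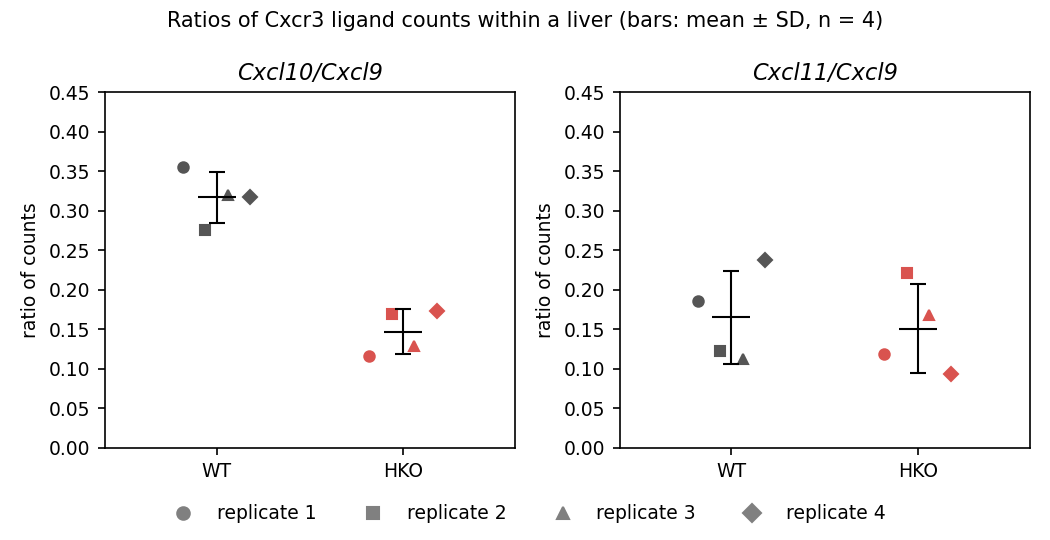
Ratio of Cxcl10 counts and of Cxcl11 counts to Cxcl9 counts within each liver (linear axes), for WT (grey) and HKO (red), with mean ± SD of 4 livers. The Cxcl10 ratios lie between 0.276 and 0.355 in WT and between 0.116 and 0.173 in HKO livers, while those of Cxcl11 overlap.

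Cxcl1, which draws neutrophils through Cxcr2, lies on chromosome 5 from 90891245 to 90893116 (plus strand). It measured 7.27, 7.33, 6.86 and 9.73 CPM in WT livers and 7.02, 15.8, 9.02 and 6.13 CPM in HKO livers. The groups overlapped, and the highest value belonged to HKO replicate 2, the liver with bile duct markers and Cxcl5. Its log2 fold change was 0.28 (95% interval -0.33 to 0.90; adjusted p = 0.643 by edgeR) and turned to -0.07 without that liver. The receptor Cxcr2 had 0 to 11 counts per liver and was not tested.

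Cxcl12, the ligand of Cxcr4 that holds leukocytes and progenitors in tissue, was by far the most abundant of the genes. It lies on chromosome 6 from 117168535 to 117181369 (plus strand). Its level was 394, 345, 340 and 339 CPM in WT livers and 430, 349, 368 and 430 CPM in HKO livers. The groups overlapped, at 354 ± 26.8 and 394 ± 42.1 CPM (SD, n = 4 each). The log2 fold change of 0.15 had the narrowest interval of the 9 genes, -0.06 to 0.37, with an adjusted p of 0.426 by edgeR. Its receptors Cxcr4 (log2 fold change 0.15, adjusted p = 0.856 by edgeR) and Ackr3, a scavenger of the ligand (-0.94, 0.42), did not pass. Ackr3 measured 0.135, 1.31, 0.282 and 0.341 CPM in HKO livers against 0.628 to 1.49 CPM in WT livers. Only HKO replicate 2 thus reached the WT range, and counts were 2 to 19 per liver.

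Cxcl13, the B cell chemokine, lies on chromosome 5 from 95956939 to 95961069 (plus strand). It measured 0.165, 4.19, 1.39 and 2.04 CPM in WT livers and 2.77, 0.463, 1.18 and 1.36 CPM in HKO livers, from 2 to 60 counts. Its spread between livers of one genotype was the widest of the 9 genes relative to its mean. The log2 fold change was -0.43 with a 95% interval from -2.11 to 1.26 (adjusted p = 0.82 by edgeR), and 0.24 without WT replicate 2. Its receptor Cxcr5 had 0 to 8 counts per liver. A difference in Cxcl13 of the size seen for Cxcl10 lies inside this interval.

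Ccl6 and Ccl9 are rodent CC ligands of Ccr1, made by macrophages and other myeloid cells, and lie side by side on chromosome 11 (minus strand), from 83587886 to 83593088 and from 83572917 to 83578637. Ccl6 measured 6.12, 6.49, 9.35 and 3.61 CPM in WT livers and 12.1, 4.71, 8.73 and 10 CPM in HKO livers. Ccl9 measured 48.5, 31.0, 31.5 and 31.8 CPM in WT livers and 38.7, 45.7, 33.5 and 64.9 CPM in HKO livers. Both had a higher mean in HKO livers with overlapping groups. For Ccl6 the log2 fold change was 0.47 (95% interval -0.27 to 1.21; adjusted p = 0.494 by edgeR). For Ccl9 it was 0.36 (95% interval -0.17 to 0.89; adjusted p = 0.46 by edgeR). Ccr1 had 3 to 10 counts per liver and was not tested.

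Ccl5, a T cell product that attracts T cells and monocytes, lies on chromosome 11 from 83525779 to 83530519 (minus strand) and was close to the floor. It measured 0.0827, 0.209, 0.298 and 0.394 CPM in WT livers and 0.54, 0.463, 0.338 and 0.255 CPM in HKO livers, from 1 to 6 and 3 to 8 counts. The groups overlapped. The gene did not pass the expression filter, and in the fit without a filter it was tested and not called.

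**Figure D4:**
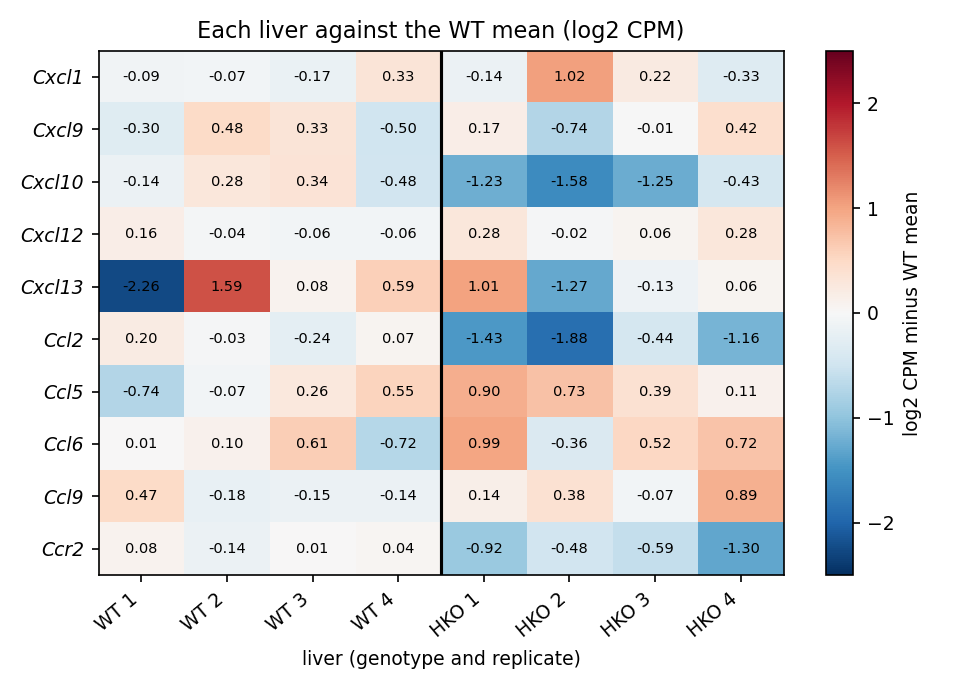
Log2 CPM (prior count 2) of each gene in each liver minus the mean of the 4 WT livers, in log2 units; the black line separates WT from HKO livers. Cxcl10, Ccl2 and Ccr2 are below 0 in all 4 HKO livers, from -1.88 to -0.43, and Cxcl13 ranges from -2.26 to 1.59 within the WT livers.

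Levels of different genes can be set side by side per kilobase of the longest protein-coding transcript. On that scale, WT livers had 63.0 ± 4.70 CPM per kilobase of Cxcl12, 11.9 ± 2.84 of Ccl9, 8.18 ± 1.37 of Cxcl1 and 6.33 ± 2.04 of Cxcl9. Below these came Ccl6 with 4.44 ± 1.63, Cxcl10 with 4.21 ± 1.09, Ccl2 with 1.85 ± 0.258, Cxcl13 with 1.69 ± 1.47, Ccr2 with 0.914 ± 0.0599 and Ccl5 with 0.462 ± 0.249 (SD, n = 4 each). Neighbours in this order overlapped within mean ± SD, except Cxcl12 and Ccl9, Cxcl10 and Ccl2, and Ccr2 and Ccl5. In HKO livers Cxcl10 stood at 1.92 ± 0.753, Ccl2 at 0.752 ± 0.403 and Ccr2 at 0.519 ± 0.132 CPM per kilobase, and Cxcl12 again led with 70.1 ± 7.46.

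Beyond the 10 genes, 54 further chemokine ligands and receptors were listed, of which 48 were in the table and 14 had enough counts to be tested. In edgeR, 0 of the 14 passed the adjusted p, against 5.15% of all genes tested. Of the 14, 1, the scavenging receptor Ackr4, had an unadjusted p under 0.05, against 19.6% of all genes tested. Ackr4 measured 1.14 ± 0.278 CPM in WT livers against 1.91 ± 0.354 CPM in HKO livers, with a log2 fold change of 0.73 and an adjusted p of 0.184 by edgeR. DESeq2 and limma-voom called 0 as well. Scavengers of inflammatory CC chemokines are Ackr2, with a log2 fold change of -0.06 and an adjusted p of 0.944 by edgeR, and Ackr1, which had 2 to 11 counts per liver. The fold changes of the 6 ligands had a median of 0.01 and those of the 8 receptors a median of 0.05, close to the 0.01 of all genes tested.

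**Figure D5:**
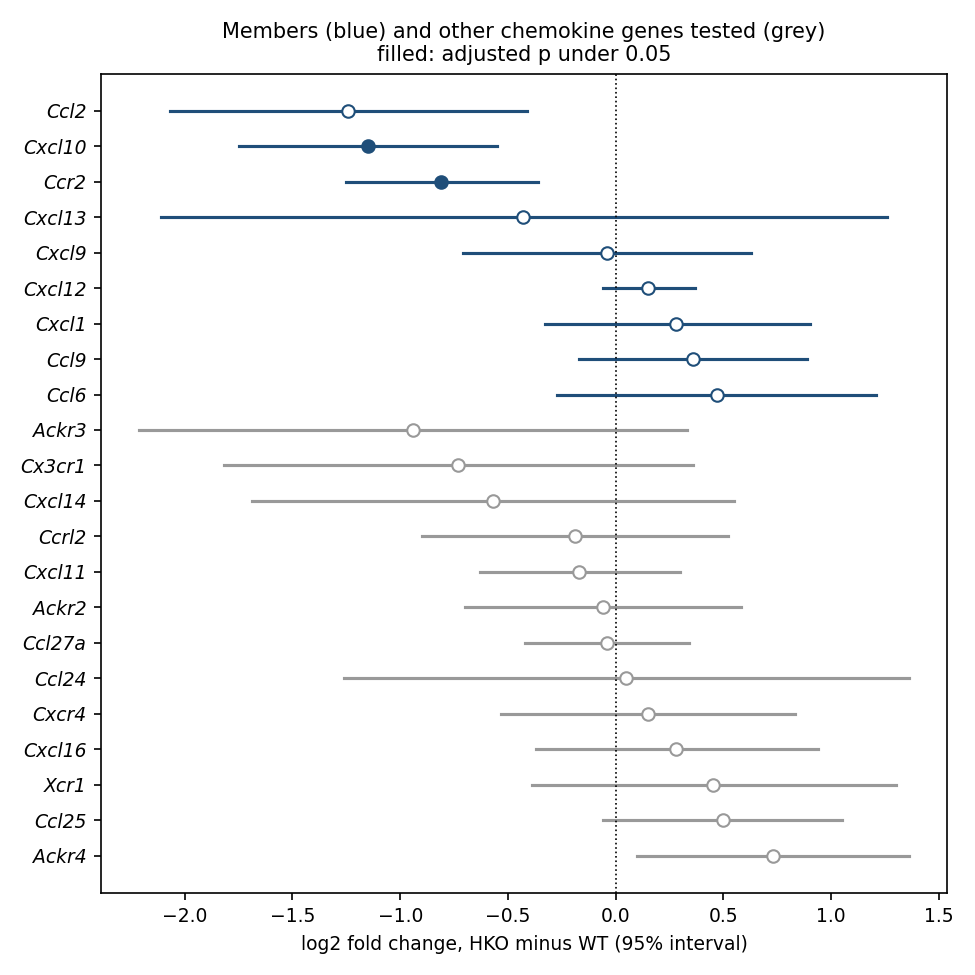
Log2 fold change between HKO and WT livers with its 95% interval for the 9 genes tested (blue) and 13 of the 14 other chemokine genes tested (grey); filled circles have an adjusted p under 0.05 in edgeR. Cxcl10 at -1.15 and Ccr2 at -0.81 are filled, and Ccl2 at -1.24 has an interval below 0 without passing the adjustment.

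Cytokines, receptors and transcription factors known to switch on chemokine genes formed a list of 31, of which 29 were tested. Of these, 2 were lower in HKO livers (3.44% of all genes tested) and 2 were higher (1.71%) in edgeR, and the median log2 fold change was 0.11. Ifngr2, a chain of the interferon gamma receptor, fell from 35.7 ± 3.23 to 25.9 ± 2.29 CPM (SD, n = 4 each), with a log2 fold change of -0.46 and an adjusted p of 0.02 by edgeR. Jun, a subunit of AP-1, fell from 19.5 ± 1.43 to 13.3 ± 2.87 CPM, with a log2 fold change of -0.56 and an adjusted p of 0.0483 by edgeR. The interleukin 1 receptor Il1r1 rose from 44.7 ± 8.35 to 88.0 ± 26.4 CPM (log2 fold change 0.98, adjusted p = 0.0435 by edgeR). Its partner chain Il1rap, the highest of the list, rose from 287 ± 46.0 to 384 ± 11.4 CPM (0.42, 0.0454). Without HKO replicate 2, WT replicate 1 or WT replicate 2, 0 of the 29 passed, and 3 or fewer did without any other single liver. With total count scaling only Ifngr2 and Jun passed, and DESeq2 and limma-voom called the same 4 genes. Interferon gamma (Ifng) and Tnf had too few counts to be tested.

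Markers of the cells that make or answer these signals were looked at beside them. Of 12 monocyte and macrophage markers, 9 were tested and 1 was lower in HKO livers, against 3.44% of all genes tested. This was Gpnmb, a gene of lipid-loaded macrophages (adjusted p = 0.00551 by edgeR). Gpnmb had 11 to 30 counts per WT liver and 0 to 2 per HKO liver, so it entered the test through the WT livers, and it drops out with a minimum of 10 counts in each liver. The 12 had sums of 106 to 151 CPM (WT) and 121 to 142 CPM (HKO), and Spp1 was the highest of them at 37.4 ± 3.61 and 37.5 ± 18 CPM. Ly6c2, which defines the monocytes that carry Ccr2, was at 0.472 CPM or less in every liver. The sums of this list overlapped between the genotypes. The part of monocyte content in the values of Ccr2 was not tested.

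The 10 Kupffer cell markers, with Cd5l the highest, were all tested and 0 passed in edgeR (0 also at an unadjusted p under 0.05, with DESeq2 and with limma-voom). Over all genes tested, 5.15% passed in edgeR and 19.6% had an unadjusted p under 0.05. For the 10 markers, the sum was 109, 267, 258 and 140 CPM in WT livers and 252, 82.0, 229 and 249 CPM in HKO livers. The 3 livers with the lowest sums, HKO replicate 2 and WT replicates 1 and 4, were also the 3 with the lowest Cxcl9 and the 3 with the lowest Ccl6. Within the WT livers, the 2 with the lowest sums had the lowest Cxcl10 as well. Ccr2 ran the other way, since these 2 had the highest Ccr2 of the WT livers and HKO replicate 2 the highest of the HKO livers. The highest Cxcl1 was also that of HKO replicate 2. The part of Kupffer cell content in these values was not tested.

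Of 15 T cell and natural killer cell markers, 2 were tested, and Themis passed as lower, against 3.44% of all genes tested. Themis had 56.8 ± 15 CPM in WT livers against 5.79 ± 4.43 CPM in HKO livers (log2 fold change -3.28, adjusted p = 0.0285 by edgeR). The 13 markers in the table summed to 43.7 to 80.0 CPM (WT) and 5.45 to 17.7 CPM (HKO), of which Themis made up most in the WT livers and in HKO replicates 1 and 2, and the defining chains Cd3d, Cd3e and Cd3g had too few counts to be tested. The other gene tested, Cd4, had 0.525 ± 0.44 CPM in WT livers against 1.92 ± 0.954 CPM in HKO livers, with a log2 fold change of 1.84 and an adjusted p of 0.0821 by edgeR. Cd4 had 2 to 17 counts per WT liver and 11 to 53 per HKO liver, and it entered the test through the HKO livers. It was called as higher by DESeq2 and, in edgeR, without WT replicate 4, and limma-voom called Themis alone. Themis was called without HKO replicate 1 or HKO replicate 4 and not without any of the other 6 livers. Without Themis, which was left out after its values had been seen, the other 12 genes in the table summed to 1.82 to 3.98 CPM (WT) and 4.26 to 6.41 CPM (HKO). Cd4 was also left out after its values had been seen. Without both, the remaining 11 summed to 1.57 to 3.38 CPM (WT) and 2.03 to 3.98 CPM (HKO), which overlap. The lower sum of the whole list in HKO livers was thus that of Themis, while Cd4 went the other way. The part of these cells in the values of Cxcl10 and Ccr2 was not tested. Of 9 stellate cell markers, 1 was lower, Col1a1 (-2.81, adjusted p = 0.00755 by edgeR), against 3.44% of all genes tested. The highest was Dcn at 241 ± 26.9 and 230 ± 28.3 CPM, and the sums were 404 to 517 and 350 to 483 CPM. The 8 endothelial markers, led by Kdr, had sums of 79.3 to 239 CPM (WT) and 123 to 269 CPM (HKO), with 0 called by edgeR (0 at an unadjusted p under 0.05 and with either other tool). The 7 B cell markers, led by Jchain, summed to 4.23 to 5.72 and 3.55 to 6.87 CPM, and the 6 neutrophil markers in the table, of 8 listed and led by S100a8 over both genotypes, to 1.16 to 4.14 and 2.36 to 8.26 CPM. Of these lists 1 and 3 genes had enough counts to be tested, and 0 of them passed in edgeR (0 at an unadjusted p under 0.05 and with either other tool). Of the 6 cholangiocyte markers, led by Spp1, 3 were tested and 0 of these were called by edgeR (0 at an unadjusted p under 0.05 and with either other tool). The 6 summed to 40.6 to 51.0 and 31.0 to 111 CPM, the last in HKO replicate 2. For the endothelial, B cell, neutrophil and cholangiocyte lists, the shares over all genes tested are 5.15% in edgeR and 19.6% at an unadjusted p under 0.05. Of 8 hepatocyte markers 4 were higher in HKO livers, namely Cps1, Serpina1c, Tat and Hnf4a, against 1.71% of all genes tested. By log2 fold change, 5 of the 8 were above 0 and 3 below. The 8 summed to 91100 to 123000 CPM (WT) and 83000 to 136000 CPM (HKO), which overlap. Hnf4a was not called with total count scaling or with the replicate number as a block. Cps1 and Tat were called in each fit with a liver left out, and 2 or 3 of the list in all. Alb, the highest, was at 74900 ± 14800 and 73500 ± 21100 CPM and did not pass.

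Among the genes whose log2 CPM over the 8 livers was most like that of Cxcl10 were Gbp6 (Pearson r = 0.962, Spearman rho = 0.905) and Fcgrt (0.958 and 0.952). Gbp6, an interferon-induced GTPase, was itself lower in HKO livers, with a log2 fold change of -0.57 and an adjusted p of 0.0176 by edgeR. Fcgrt did not pass (log2 fold change -0.17, adjusted p = 0.239 by edgeR). Those most like Ccr2 were E330011O21Rik (0.977 and 0.929), Cfap54 (0.976 and 0.81) and Synj2 (0.971 and 0.905), and all 3 passed the test as lower. Cfap54 was low, with means of 2.0 CPM in WT livers and 0.369 CPM in HKO livers. The coefficients describe 8 livers that fall into 2 genotypes, were picked for their high values among all genes tested, and carry no p. Cxcl10 and Ccr2 were themselves lower in HKO livers, so genes picked for likeness to them tend to be lower too. That such genes passed is therefore not separate evidence.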

How the data were processed

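Livers of 4 WT and 4 HKO mice were analysed, grouped by GEO's labels. The authors deposited estimated counts per gene (expectation-maximization quantification in Partek after alignment with STAR, per the submitters' processing notes; versions are not given in the sources used here), without normalization, and 80.3% of the values are exactly whole numbers, with no tolerance allowed. Reads shared between genes are split by this method; among the 10 genes only Cxcl12 has fractional values, in 6 livers. Because the labels give rRNA depletion together with a kit for small RNA, which kind of library was made is unsure. The listed coordinates match GRCm38. Strandedness is not given in the sources used here.

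Estimated counts were rounded to whole numbers and fitted with edgeR 4.0.16 in R 4.3.3 (TMM scaling, default expression filter with minimum count 10, robust quasi-likelihood test of HKO against WT), with Benjamini-Hochberg adjustment over 12395 genes and a threshold of 0.05. The SE was taken as |log2 fold change| over the square root of the F statistic, and a prior count of 2 went into log2 CPM. The fits were tested on simulated data. The fit was repeated with limma-voom (limma 3.58.1), with DESeq2 1.42.0, with upper quartile, RLE and total count scaling, without a filter, with a minimum of 10 counts in each liver, with the replicate number as a block, with an unadjusted p, with a fold change above 1.5, with prior counts of 0.125 and 5, and without each liver. Sequence searches and plots were made in Python 3.11.15 (matplotlib 3.10.9, pandas 2.3.3, numpy 2.4.6), with GENCODE vM21 3′UTRs and RefSeq promoters.

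The 10 genes and the lists (other chemokine genes, inducers and cell type markers) were chosen with earlier results of these data known. By a rule, the text names the 10 genes, their direct partners, listed genes that passed (for a marker or inducer list, at most 6) and the highest gene of each such list, and for each called gene the 3 genes with the most similar profile. Cxcl5, Krt19, Epcam, Ccl20, Ccl28, Cx3cl1, Cxcl11, Ly6c2, Ifng, Tnf, Cd4 and Cd3 chains were named after their values were seen. Mir33 was not analysed here. Of the genes this rule names, 2 are not reported here.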

Additional observations from a re-analysis of the deposited data

Results flagged for a closer look

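Of 54 groups of 4 livers looked at, 10 had a liver whose gap to the nearest other exceeded Dixon's 95% critical value. Chance flags about 1 in 20 groups, but Cxcl5, Krt19 and Epcam were taken up because HKO replicate 2 stood out and the ligand sum holds Cxcl5, so the count of 10 cannot be set against it. In WT livers, Cxcl1 was 9.73 CPM in replicate 4 against 6.86 to 7.33 CPM in the others, Cxcl12 was 394 CPM in replicate 1 against 339 to 345 CPM, and Ccl9 was 48.5 CPM in replicate 1 against 31.0 to 31.8 CPM. The summed level of the other chemokine ligands was 23.0 CPM in WT replicate 2 against 19.7 to 20.2 CPM.

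The remaining 6 all fell on HKO replicate 2. Against the other HKO livers it had 40.8 CPM of Cxcl5 (0 to 0.113 CPM), 16.9 CPM of Krt19 (0.169 to 0.405 CPM) and 16.5 CPM of Epcam (0.451 to 1.02 CPM). Its other chemokine ligands summed to 80.1 CPM (18.6 to 22.6 CPM), its neutrophil markers to 8.26 CPM (2.36 to 2.89 CPM) and its Kupffer cell markers to 82.0 CPM (229 to 252 CPM). Ccl28, Cx3cl1 and Ccl20, further epithelial chemokines, reached 6.10, 4.25 and 3.32 CPM in the same liver.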

How the results depend on the processing

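Of 142 alternative values for the log2 fold changes of the 9 genes, 137 kept their direction and 121 their side of the threshold as well. The number of the 9 genes called stayed at 2 with DESeq2, limma-voom, each other scaling, each filter and the added fold change of 1.5, was 3 with an unadjusted p, and was 0 to 1 with a liver left out. Reversed log2 fold changes were -0.07 for Cxcl1 and 0.14 for Cxcl9 without HKO replicate 2, 0.13 for Cxcl9 and 0.24 for Cxcl13 without WT replicate 2, and 0.06 for Cxcl9 without WT replicate 3; these genes were not called in any fit, and the cause was not tested. With a liver left out, their log2 fold changes ranged from -0.07 to 0.44 (Cxcl1), -0.20 to 0.14 (Cxcl9) and -0.95 to 0.24 (Cxcl13), and those of Ccl6 from 0.27 to 0.73, Ccl9 from 0.14 to 0.54 and Cxcl12 from 0.11 to 0.21. Over all genes, 638 calls became 989 with DESeq2, 2424 with an unadjusted p, 371 with the added fold change and 222 to 599 with a liver left out. Total count scaling moved the median of all genes by -0.089 and the split to 622 lower and 118 higher, from 426 and 212. Of the other chemokine genes, 1 was called with an unadjusted p, against 19.6% of all genes tested. Of the inducers, 4 calls became 2 with total count scaling, 3 with RLE scaling and 3 without a filter. They became 9 of 29 with an unadjusted p (19.6% of all genes tested), 1 with the added fold change and 0 to 3 with a liver left out.

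With the replicate number as a block, 0 of the 9 genes and 2 inducers were called (adjusted p = 0.109 for Cxcl10 and 0.0922 for Ccr2, edgeR). The numbers name different mice, and same-numbered livers did not deviate together (correlations from -0.148 to 0.012, 0 of 4 best with their own number), so the samples share only a number. Few counts limit Ccl2, Ccl5, Cxcl13 and the receptors that were not tested.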
